A study of Mus musculus with 4 samples.

Results

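The genes described here are the Rab GTPases and a set of proteins that carry vesicles in the urothelium, the epithelium that lines the ureter and bladder. They were taken from the array by name: every gene named *Rab* with a number and its letter suffixes, the 5 synaptotagmin-like genes *Sytl1* to *Sytl5*, and *Mal*, *Mal2*, *Vamp8*, *Snx31* and *Vps33a*. This gave 69 genes with 98 probes, of 29924 gene names and 39429 probes on the array, of which 59 are *Rab* genes. All 69 passed the filter on dim probes, and 68 of them were well above background in all 8 channels.

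RNA came from ureters of NMRI mice dissected at P0 (day 0 after birth) and cultured for 8 days on a membrane, either with 2 µM purmorphamine, a small molecule that activates Smoothened and with it hedgehog signalling, or with the solvent DMSO. *Pparg-cKO* ureters were Pax2-cre/+; Pparg (fl/fl) and control ureters Pparg (fl/?). Pax2-cre is active in the epithelium of the ureter, as in the duct it derives from and the kidney's collecting ducts. On each of the 4 arrays a DMSO pool met the purmorphamine pool of its own genotype and sex, and each of the 4 groups had 1 male and 1 female pool (n = 2). The sex of a pool and the dye orientation of its array changed together and cannot be told apart. P-values measure the spread between these pools only, and nothing says how many animals each pool held.

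Rab GTPases are small switches on membranes: loaded with GTP they recruit effectors that move, tether and fuse a given kind of vesicle. In the superficial (umbrella) cells of the urothelium, uroplakin plaques are delivered to the apical surface in fusiform vesicles, a step in which Rab27b, its synaptotagmin-like effectors, Rab11, Rab8, the raft protein Mal and the SNARE Vamp8 are known to act, while Snx31 sorts uroplakins in endosomes and Vps33a works in transport to lysosomes. Other Rabs serve every cell, from the endoplasmic reticulum to the lysosome.

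Per channel, 66.3% to 70.5% of spots rose well above background, and 0 spots were saturated. The *Pparg* probe does not check the genotype, since a *Pparg* transcript without the deleted exons is still made, and it was not lower in *Pparg-cKO* (log2 fold change 0.51 ± 0.17 with DMSO, SE, adjusted p = 0.209). *Ptch1*, a target of hedgehog signalling, rose with purmorphamine in both genotypes by limma with Benjamini-Hochberg adjustment, by 1.62 in *Pparg-cKO* (adjusted p = 0.0144) and by 1.00 in control (adjusted p = 0.046). The 4 markers each of epithelium, smooth muscle and fibroblasts exceeded background in every pool. Among the epithelial markers, limma called *Epcam* higher in *Pparg-cKO*, by 0.61 with DMSO and by 0.76 with purmorphamine. With purmorphamine over DMSO *Epcam* was called lower, at -0.81 in *Pparg-cKO* and -0.96 in control. *Cdh1*, *Krt8* and *Krt18* were not called in these comparisons. In such mixed tissue fewer cells of a type and less RNA per cell cannot be told apart.

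Levels below are log2 intensities after background correction, loess within arrays and Aquantile between them. A level is a property of its probe and is compared between pools, not between genes. Between genotypes the pools of 33 of the 69 members did not overlap with DMSO, and those of 35 did not with purmorphamine. The same share of all genes was not computed, so overlap only describes the pools. Differences are log2 fold changes with the SE of the limma fit over 2 pools a group, and adjusted p is by Benjamini-Hochberg over all 27064 probes tested, with a threshold of 0.05. Where a gene had several probes the brightest stood for it, except for the rule of the methods described below, where any probe could pass.

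The plot of levels by pool gives the 8 values of the members on which the results turn.

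**Figure D1:**
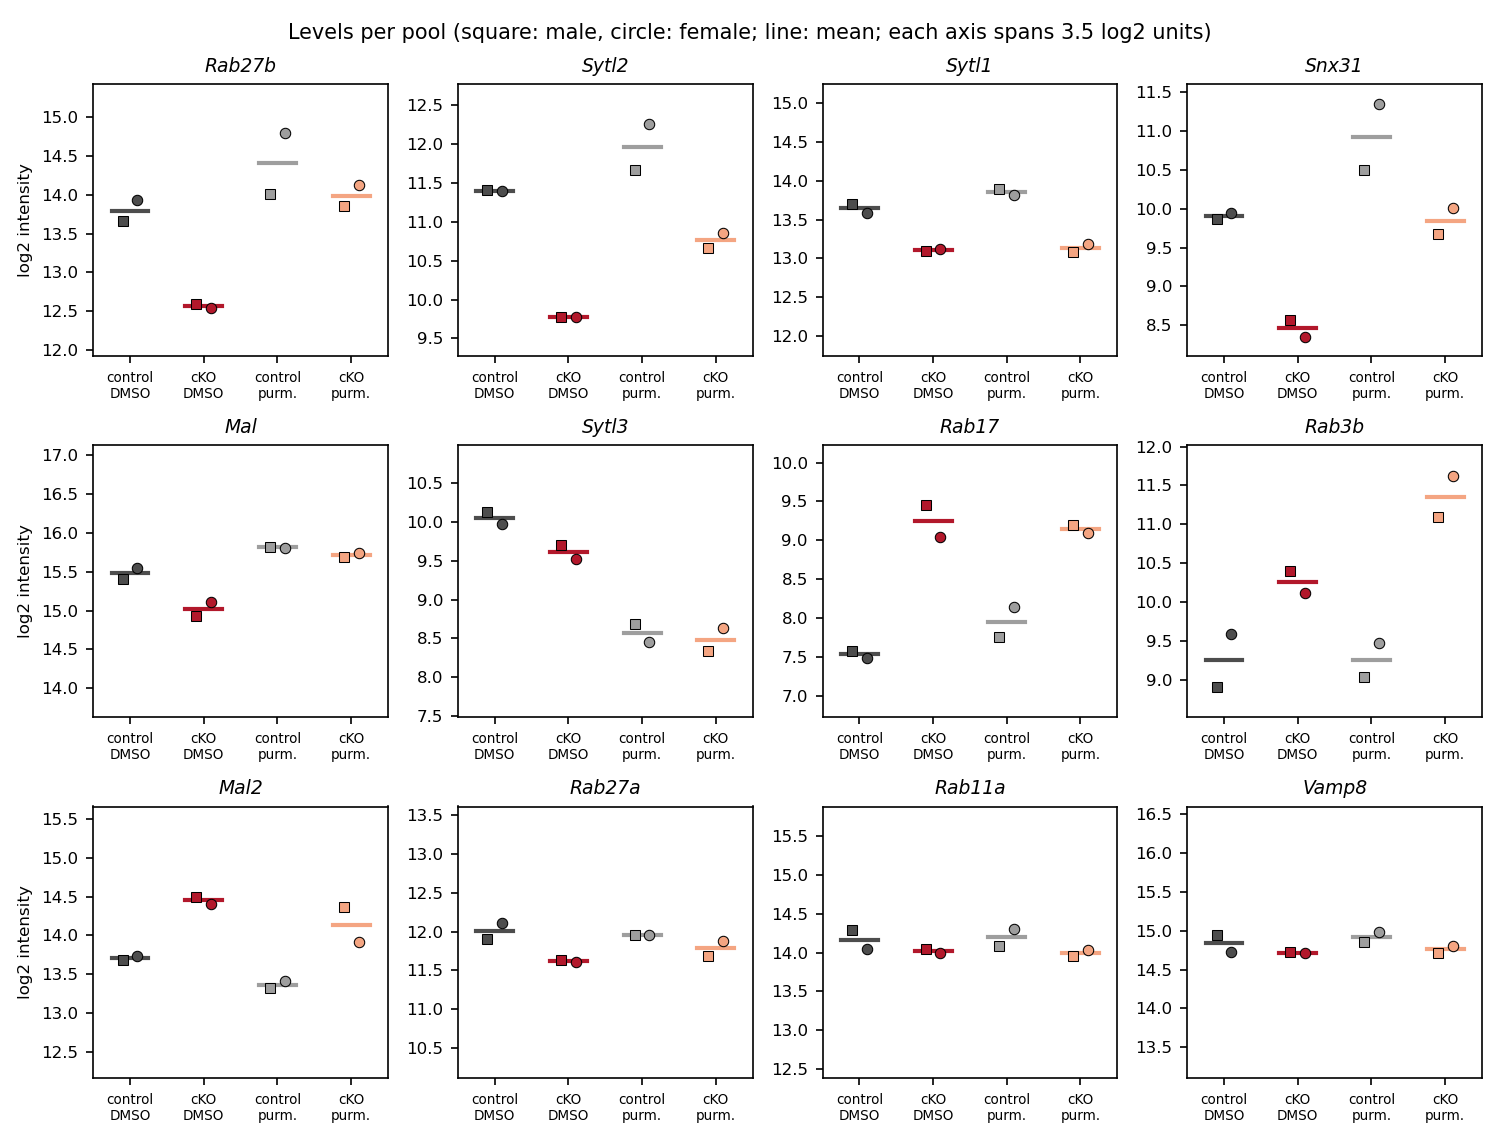
Log2 intensity (y axis, the same span in each panel) of 12 members in the 4 groups (x axis), with the male pool as a square, the female pool as a circle and their mean as a line. *Rab27b*, *Sytl2*, *Snx31* and *Mal* were lowest in *Pparg-cKO* with DMSO, *Sytl3* was lower with purmorphamine in both genotypes, and *Rab17* and *Rab3b* were higher in *Pparg-cKO*, while the pools of *Rab11a* and *Vamp8* lay close together in all 4 groups.

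Promoters are shown for the 3 members called in both of the comparisons that asked the same question and held in the RefSeq promoter table, which has 54 of the 69 members. *Rab17* was higher and *Sytl1* lower in *Pparg-cKO* in both media, and *Sytl3* was lower with purmorphamine in both genotypes. Each is the 250 bases before the annotated start, 5′ to 3′ on the gene's strand, in build GRCm38.p6: *Rab17* at chr1:90967668-90967917 (minus strand), *Sytl1* at chr4:133263088-133263337 (minus strand) and *Sytl3* at chr17:6658809-6659058 (plus strand). Capitals mark matches on either strand to the nuclear receptor half-site AGGTCA, the Gli motif GACCACCCA or the grainyhead-like motif AACCGGTT.
Rab17: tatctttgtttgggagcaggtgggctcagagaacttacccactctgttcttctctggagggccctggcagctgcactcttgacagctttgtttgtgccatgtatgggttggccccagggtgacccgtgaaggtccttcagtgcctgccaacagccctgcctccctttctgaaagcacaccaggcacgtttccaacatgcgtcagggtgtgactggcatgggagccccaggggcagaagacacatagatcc
Sytl1: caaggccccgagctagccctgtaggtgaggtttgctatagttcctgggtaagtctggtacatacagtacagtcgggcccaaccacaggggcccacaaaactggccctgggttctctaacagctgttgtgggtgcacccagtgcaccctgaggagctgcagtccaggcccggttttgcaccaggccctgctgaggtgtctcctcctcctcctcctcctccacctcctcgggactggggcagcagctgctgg
Sytl3: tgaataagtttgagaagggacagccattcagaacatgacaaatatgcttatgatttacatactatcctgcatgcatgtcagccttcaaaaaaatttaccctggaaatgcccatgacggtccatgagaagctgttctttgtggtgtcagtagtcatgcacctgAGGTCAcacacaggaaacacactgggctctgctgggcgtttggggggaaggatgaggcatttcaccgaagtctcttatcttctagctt

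The only match in these windows was 1 half-site in *Sytl3*. Of all 32851 promoter windows of this length, 14.0% held the half-site, 0.225% the Gli motif and 0.116% the grainyhead-like motif. Among the 54 members in the table, 4 held the half-site (*Rab31*, *Rab32*, *Rab43* and *Sytl3*), 1 held the Gli motif (*Rab31*), and 0 held the grainyhead-like motif. None of these motifs contains another. A match is a string of letters and not a bound site, and its absence says only that these letters are not in this window.

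The first comparison asked how the loss of *Pparg* changed the members without hedgehog activation. With DMSO, the Rab27 effectors *Sytl2* and *Sytl1* and the sorting nexin *Snx31* fell in *Pparg-cKO*, and *Rab17*, a Rab of apical recycling in epithelial cells, rose. These 4 of 69 members (5.8%) were called by limma, where 3.69% of all 20229 genes tested were called (1.91% higher and 1.78% lower). Without adjustment, 14 members (20.3%) passed p under 0.05, against 15.8% of all genes. In all, 36 members lay above 0 and 33 below, with a median log2 fold change of 0.02 where all genes tested had 0.00.

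*Sytl2*, which links Rab27 vesicles to the plasma membrane, had levels of 11.41 and 11.40 in the male and female control pools and of 9.78 in both *Pparg-cKO* pools. The groups were far apart, and the log2 fold change was -1.63 ± 0.19 (adjusted p = 0.0081). *Snx31* had levels of 9.87 and 9.95 in control and of 8.57 and 8.35 in *Pparg-cKO*, a log2 fold change of -1.45 ± 0.27 (adjusted p = 0.0395). *Sytl1* was at 13.70 and 13.59 in control and at 13.10 and 13.12 in *Pparg-cKO*, a smaller log2 fold change of -0.53 ± 0.09 (adjusted p = 0.033). Its second probe gave -0.74 (adjusted p = 0.0134). The largest decrease among the members that missed the threshold was that of *Rab27b*, the GTPase to which these effectors bind. *Rab27b* was at 13.66 and 13.93 in control and at 12.59 and 12.54 in *Pparg-cKO*, so that the groups did not overlap, and its log2 fold change was -1.23 ± 0.25 with an adjusted p of 0.0504. Its other, dimmer probe passed, at -1.28 (adjusted p = 0.0311).

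*Rab27a*, its close relative in lysosome-related organelles, differed less. It was at 11.91 and 12.11 in control and at 11.63 and 11.61 in *Pparg-cKO*, with a log2 fold change of -0.39 ± 0.11 (adjusted p = 0.143). *Sytl4* and *Sytl3* gave -0.43 and -0.45, and neither was called (adjusted p = 0.279 and 0.201). *Sytl5*, close to background at levels of 6.63 to 7.75, gave 0.25 with pools that overlapped. Of the 5 *Sytl* genes, 2 were thus called lower and 0 higher, with a median of -0.45, where 1.78% of all genes were called lower. Of 5 other Rab27 effectors tested, 1 was called higher (*Rph3al*) and 0 lower, with a median of -0.00. *Mal*, which organizes apical rafts, was at 15.41 and 15.55 in control and at 14.93 and 15.11 in *Pparg-cKO*, and its log2 fold change of -0.45 ± 0.10 was not called (adjusted p = 0.0719). *Vamp8* and *Vps33a* had log2 fold changes of -0.12 ± 0.11 and -0.05 ± 0.14, and the pools of each overlapped.

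Other members lay above 0. *Rab17* was at 7.57 and 7.49 in control and at 9.45 and 9.04 in *Pparg-cKO*, with no overlap and a log2 fold change of 1.71 ± 0.17 (adjusted p = 0.00602). Its second probe gave 1.40 (adjusted p = 0.0139). The control levels of *Rab17* were low, within the range of *Sytl5* (6.63 to 7.75), though well above background in both pools. *Mal2*, which acts in transcytosis to the apical surface, was at 13.68 and 13.74 in control and at 14.50 and 14.40 in *Pparg-cKO*. Its log2 fold change of 0.73 ± 0.15 just missed the threshold (adjusted p = 0.0532). *Rab3b*, a Rab of regulated secretion, gave 1.02 ± 0.28 (adjusted p = 0.136), and its pairs differed, by 1.498 for the male pools and by 0.534 for the female pools.

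By the rule of the methods, which asks for an intensity above 100 and for a fold change of 1.5 or more, alike in direction, in both pairs of pools, 7 of the 62 members bright enough changed with DMSO (11.3%, against 5.5% of 15423 genes). These were *Rab27b*, *Snx31*, *Sytl1* and *Sytl2*, lower, and *Mal2*, *Rab17* and *Rab3b*, higher. The rule has no error rate. It takes processed signals and counts a gene where any of its probes passes, so a call need not show in the levels above. The brightest *Sytl1* probe differed by -0.593 for the male pools and by only -0.471, under 1.5-fold, for the female pools. The limma calls need all 4 arrays: without the male control array *Sytl2* alone was called, without the female one 0 members (13 at an unadjusted p under 0.05), and without either *Pparg-cKO* array *Rab17* alone.

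**Figure D2:**
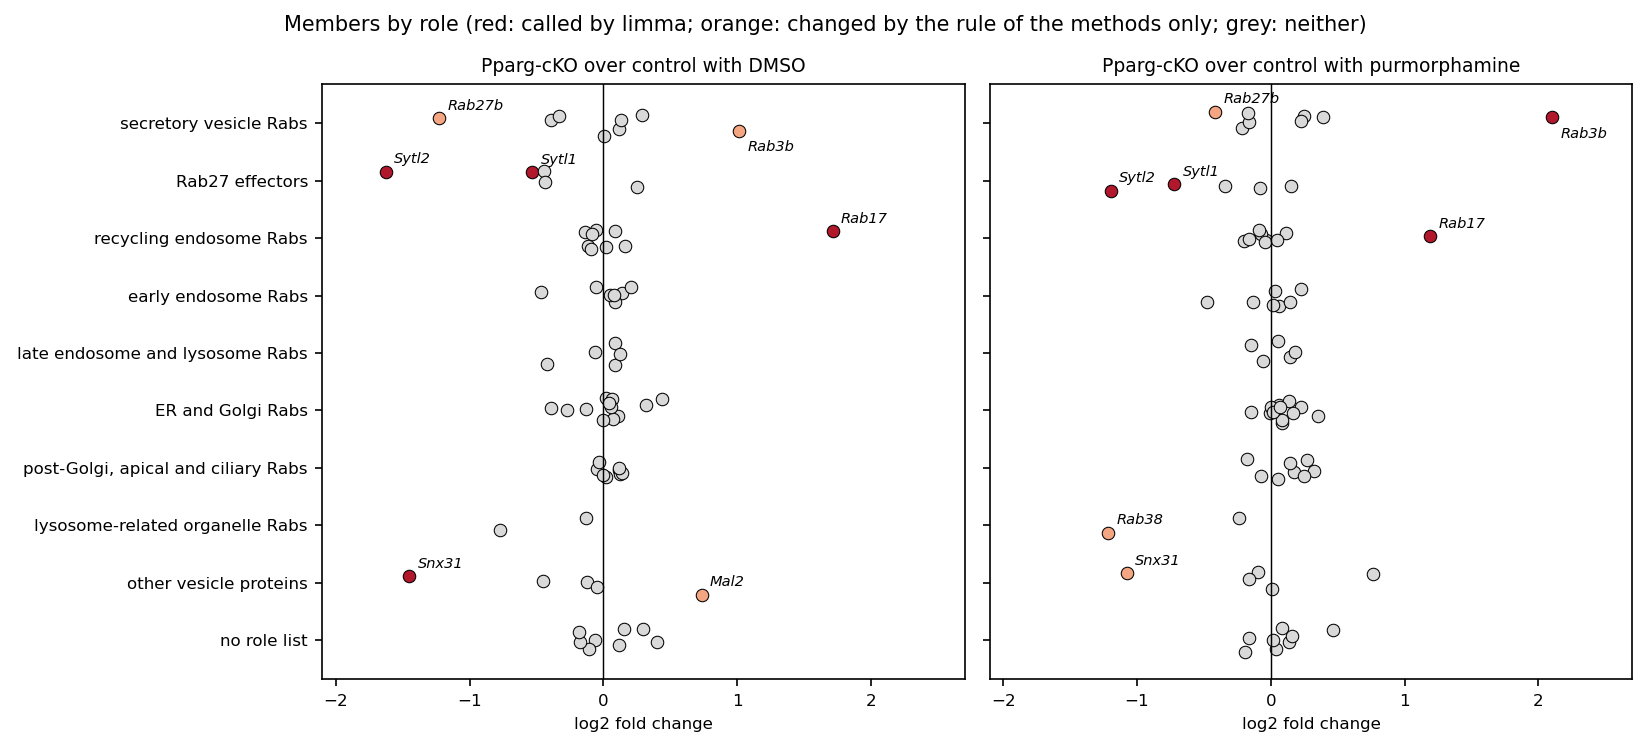
Log2 fold change of *Pparg-cKO* over control (x axis) of the 69 members by role (y axis), with DMSO on the left and with purmorphamine on the right; each point is a gene, red if called by limma, orange if changed by the rule of the methods only and grey otherwise. Apart from *Rab17*, the points of the endosome, Golgi and post-Golgi Rabs lie between -0.48 (*Rab20*, with purmorphamine) and 0.44 (*Rab30*, with DMSO). The members called are *Sytl1*, *Sytl2*, *Snx31*, *Rab17* and *Rab3b*.

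Markers of cell types moved with these members, and their part in the results was not tested. The 5 superficial cell markers *Upk1a*, *Upk1b*, *Upk2*, *Upk3a* and *Krt20* summed to intensities of 168000 and 214000 in the control pools with DMSO and of 111000 and 105000 in *Pparg-cKO*, and *Krt20* alone fell by 3.70 on the log2 scale (adjusted p = 0.00565). *Upk1a* and *Upk1b* were called lower too, while *Upk2* (-0.80, adjusted p = 0.0632) and *Upk3a* (-0.24, adjusted p = 0.433) were not called. The lower sum went with the lower *Sytl2*, *Snx31* and *Rab27b*. The 5 kidney markers, of which 2 were well above background in both control pools and 5 in both *Pparg-cKO* pools, summed to 1720 and 563 in control and to 8980 and 8050 in *Pparg-cKO*. Among them *Cdh16*, a cadherin of kidney tubules, was 4.002 higher (adjusted p = 0.0396), and *Umod* and *Slc12a1* were 2.37 and 1.40 higher (adjusted p = 0.0145 and 0.00344), while *Aqp2* was at -0.10 and *Slc34a1* at -0.22. *Cdh16*, at levels of 12.98 and 12.77 in *Pparg-cKO*, made up most of the sums there. The higher sums went with the higher *Rab17* and *Mal2*. Other lists moved in the same comparison. The fat cell markers summed to 79900 and 111000 in control and to 31300 and 24500 in *Pparg-cKO*, with 0 of the 3 tested called. The endothelial markers summed to 10600 and 7030 in control and to 12700 and 13500 in *Pparg-cKO*, and *Kdr* was called higher by 0.88 (adjusted p = 0.0378).

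**Figure D3:**
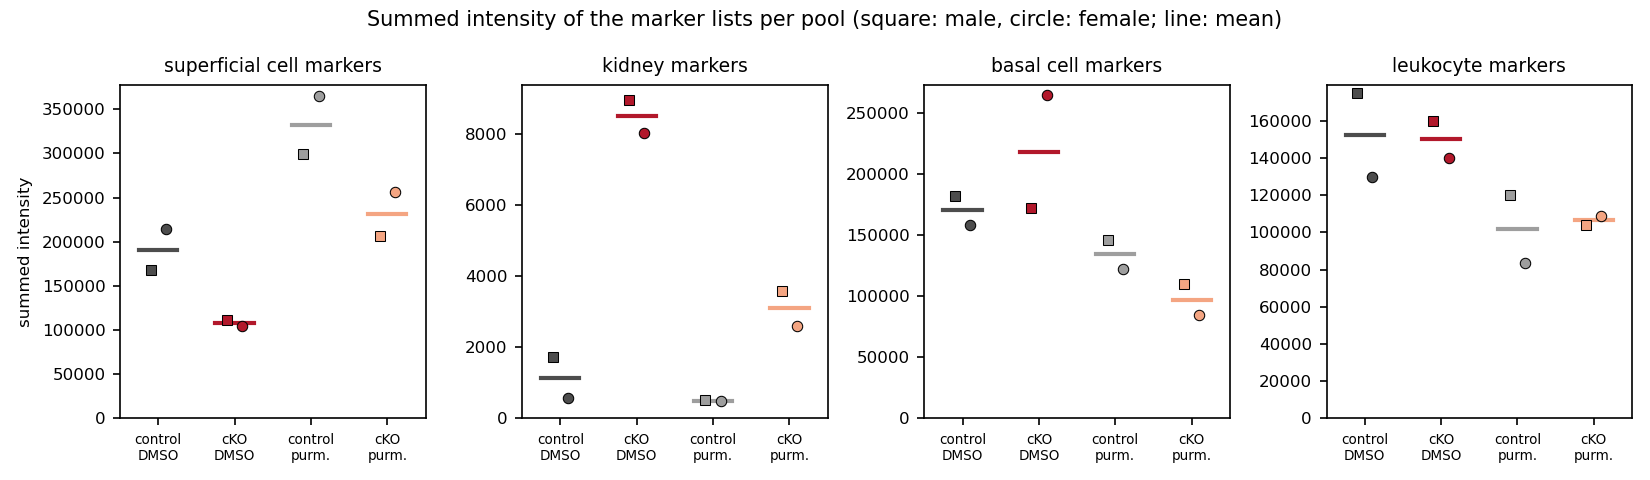
Summed intensity (y axis, from 0) of 4 marker lists in the 4 groups (x axis), with the male pool as a square, the female pool as a circle and their mean as a line. The superficial cell sum was lowest and the kidney sum highest in *Pparg-cKO* with DMSO, and the leukocyte sum was lower with purmorphamine in both genotypes.

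The second comparison set the genotypes side by side in the presence of purmorphamine. *Sytl1* and *Sytl2* were again lower in *Pparg-cKO*, and *Rab17* and *Rab3b* were higher. Limma called these 4 of 69 members (5.8%), against 2.85% of all genes tested (1.15% higher and 1.71% lower), and at an unadjusted p under 0.05 there were 13 (18.8%, against 15.6%). Without any 1 of the 4 arrays 0 were called, with 8 to 14 at an unadjusted p under 0.05. The replicate block (sex and dye) left 1 call (*Sytl2*), and processed signals left 1 (*Sytl1*). Over all 69, the median was 0.04 (all genes, -0.00). The pools are other than those of the first comparison, but each lay on an array with a pool used there.

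*Sytl2* was at 11.67 and 12.26 in control and at 10.67 and 10.86 in *Pparg-cKO* (log2 fold change -1.20 ± 0.19, adjusted p = 0.028). *Sytl1* was at 13.90 and 13.82 in control and at 13.08 and 13.19 in *Pparg-cKO* (-0.72 ± 0.09, adjusted p = 0.0173). These effectors were lower in every *Pparg-cKO* pool than in any control pool of the same medium, but many other members had groups without overlap too. *Rab27b* had overlapping pools here, 14.01 and 14.80 in control against 13.86 and 14.12 in *Pparg-cKO*, and a log2 fold change of -0.42 ± 0.25 (adjusted p = 0.5). *Snx31*, at 10.50 and 11.35 in control and 9.68 and 10.01 in *Pparg-cKO*, gave -1.08 ± 0.27 and was not called (adjusted p = 0.104). *Mal* was within 0.2 of control in both pairs, at -0.12 and -0.07.

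*Rab3b* had the largest difference of all members with purmorphamine. It was at 9.03 and 9.47 in control and at 11.09 and 11.62 in *Pparg-cKO*, a log2 fold change of 2.10 ± 0.28 (adjusted p = 0.0193). *Rab17* was at 7.76 and 8.14 in control and at 9.19 and 9.09 in *Pparg-cKO* (1.19 ± 0.17, adjusted p = 0.0233). *Mal2* gave 0.77 ± 0.15 (adjusted p = 0.0526). *Rab38*, a Rab of melanosomes and other lysosome-related organelles, differed between the pairs with DMSO (-1.57 for the male pools, 0.02 for the female pools), and with purmorphamine it gave -1.22 ± 0.37, which limma did not call (adjusted p = 0.162). The 4 melanocyte markers summed to 647 and 985 in control and to 570 and 599 in *Pparg-cKO* with DMSO, and to 586 and 593 against 510 and 531 with purmorphamine. Of them *Pmel* was well above background in all pools at levels of 8.17 to 8.46, *Dct* gave -1.26 with DMSO and -0.69 with purmorphamine without being called, and *Tyrp1* was not well above background in any group. Their part in the values of *Rab38* was not tested.

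The rule of the methods, which any probe of a gene can meet, named 7 of 61 members here (11.5%, against 6.28% of 15312 genes). These were *Rab3b* and *Rab17*, higher, and *Rab27b*, *Rab38*, *Snx31*, *Sytl1* and *Sytl2*, lower. The brightest *Rab27b* probe differed by only -0.152 for the male pools and by -0.683 for the female pools. For its dimmer probe limma gave -0.72 (adjusted p = 0.173). With purmorphamine the kidney markers summed to 510 and 475 in control and to 3580 and 2610 in *Pparg-cKO*, and *Cdh16* was 4.51 higher (adjusted p = 0.0333). *Cdh16*, at levels of 11.64 and 11.12, again made up most of the sums in *Pparg-cKO*. Of the other 4, 0 were called in this medium: *Umod* gave 0.68 (adjusted p = 0.392), *Slc12a1* -0.05, *Aqp2* -0.16 and *Slc34a1* -0.25. The superficial cell markers summed to 299000 and 365000 in control and to 207000 and 256000 in *Pparg-cKO*. The fat cell markers summed to 89000 and 74900 in control and to 4060 and 37900 in *Pparg-cKO*, where the male and female pools differed widely. No fat cell marker was called, and their part in the results was not tested.

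The third comparison asked how hedgehog activation changed the members in *Pparg-cKO* ureters. *Rab27b*, *Snx31*, *Sytl2* and *Mal* rose with purmorphamine and *Sytl3* fell. Limma called these 5 of 69 members (7.25%, against 4.66% of all genes tested, of which 1.85% were higher and 2.81% lower). Without adjustment 17 passed (24.6%, against 22.2%). The median of the members was 0.07 (all genes, -0.00), with 45 members above 0 and 24 below.

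*Rab27b* went from 12.59 to 13.86 in the male and from 12.54 to 14.12 in the female pools, a log2 fold change of 1.42 ± 0.17 (adjusted p = 0.0249). Its second probe gave 1.25 (adjusted p = 0.0254). *Snx31* went from 8.57 to 9.68 and from 8.35 to 10.01 (1.38 ± 0.23, adjusted p = 0.0474), and *Sytl2* from 9.78 to 10.67 and from 9.78 to 10.86 (0.99 ± 0.17, adjusted p = 0.0493). The *Rab27b* and *Snx31* pools of *Pparg-cKO* with purmorphamine were near those of control with DMSO, and the *Sytl2* pools were below them. *Mal* went from 14.93 to 15.69 and from 15.11 to 15.74 (0.70 ± 0.11, adjusted p = 0.0411). *Sytl1*, the other effector that was lower in *Pparg-cKO*, was at 0.03 ± 0.10. *Rab17* was at -0.10 ± 0.16 and *Mal2* at -0.32 ± 0.12, and neither was called. *Rab3b* gave 1.09 ± 0.21 with 0.685 for the male array and 1.495 for the female one, and was not called (adjusted p = 0.0613).

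*Sytl3* was the only member called lower. It went from 9.70 to 8.34 in the male and from 9.52 to 8.63 in the female pools, a log2 fold change of -1.13 ± 0.14 (adjusted p = 0.0298). Its 2 dimmer probes gave -0.50 and -0.35 and were not called. *Rab34*, which acts in building cilia, gave 0.50 ± 0.11 (adjusted p = 0.0779), and *Rab23*, which restrains hedgehog signalling, gave 0.10 ± 0.12.

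By the rule of the methods, 6 of 62 members changed (9.68%, against 8.67% of 15402 genes), which were the 5 that limma called and *Rab3b*. These calls rest on both arrays. Without the female *Pparg-cKO* array limma called 0 members (7 at an unadjusted p under 0.05), and without the male one it called *Rab27b*, *Snx31* and *Rab3b*. Processed signals, no filter on dim probes and the value table gave 0 calls each, with 18, 20 and 15 members at an unadjusted p under 0.05.

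Uroplakins were among the genes that moved in the same comparison. Of the 6 on the list, limma called 4 higher with purmorphamine in *Pparg-cKO*: *Upk1a* by 2.14 (adjusted p = 0.0144), *Upk1b* by 1.72 (adjusted p = 0.0142), *Upk3b* by 1.44 (adjusted p = 0.0144) and *Upk2* by 0.84 (adjusted p = 0.0352). *Upk3a*, the brightest of them, gave 0.47 (adjusted p = 0.0996). With DMSO, *Upk1a*, *Upk1b* and *Upk3b* were called lower in *Pparg-cKO* (-1.34, -1.31 and -1.83), and *Upk3bl*, named for its likeness to *Upk3b*, was called higher in both media (2.27 and 3.58). The superficial cell sum went from 111000 and 105000 to 207000 and 256000 with purmorphamine. Markers of other cells moved too: the endothelial sum went from 12700 and 13500 to 25000 and 28900, with *Tek* and *Cdh5* called higher by 2.00 and 1.25 (adjusted p = 0.0144 and 0.046), and *Krt15* fell by 1.40 on the log2 scale (adjusted p = 0.0246). The fat cell sum went from 31300 to 4060 in the male pools and from 24500 to 37900 in the female pools. The smooth muscle sum went from 256000 and 230000 to 396000 and 464000, with no smooth muscle marker called. The part of these markers in the results was not tested.

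**Figure D4:**
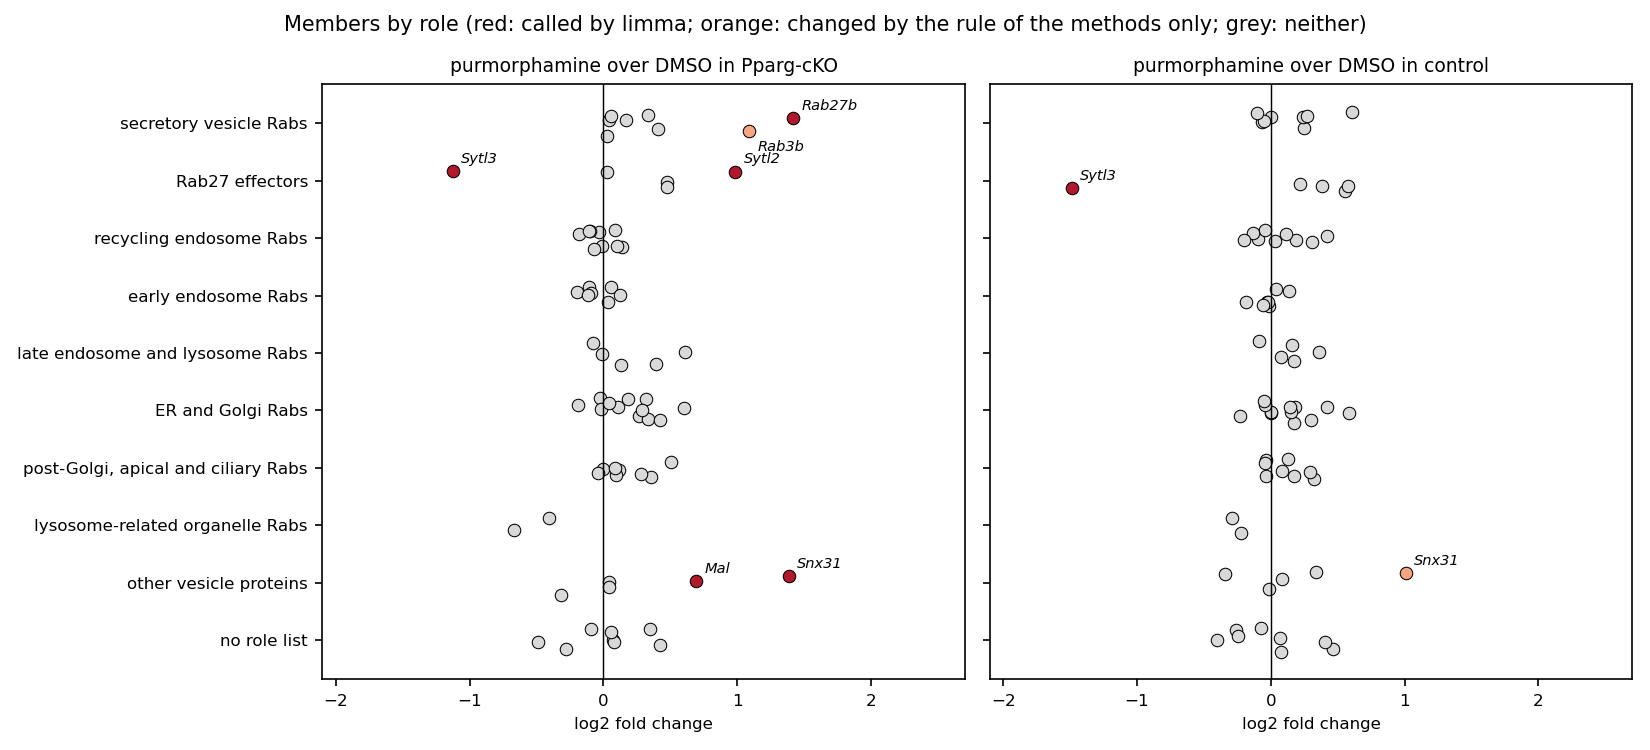
Log2 fold change of purmorphamine over DMSO (x axis) of the 69 members by role (y axis), in *Pparg-cKO* on the left and in control on the right; each point is a gene, red if called by limma, orange if changed by the rule of the methods only and grey otherwise. *Sytl3* lies lowest in both, and *Rab27b* and *Snx31* lie highest in *Pparg-cKO*.

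The same question in control ureters gave 1 call among the 69 members (1.45%, against 1.2% of all genes tested, of which 0.282% were higher and 0.919% lower). Without adjustment 15 passed (21.7%, against 19.6%). The call was *Sytl3*, which went from 10.13 to 8.69 in the male and from 9.98 to 8.45 in the female pools, a log2 fold change of -1.49 ± 0.14 (adjusted p = 0.0349). The dimmer probes gave -0.72 and -0.65 (adjusted p = 0.0545 and 0.0837). Without either control array the call was lost (adjusted p = 0.131 and 0.109), as it was with processed signals, no filter on dim probes and the value table (adjusted p = 0.169, 0.0754 and 0.156). The leukocyte markers moved the same way as *Sytl3*, summing to 175000 and 130000 in control with DMSO and to 120000 and 83800 with purmorphamine. So did the basal keratinocyte gene *Krt15*, which fell by 1.67 on the log2 scale (adjusted p = 0.035). The other basal cell markers *Krt5*, *Krt14* and *Trp63* gave -0.202, -0.165 and -0.001 and were not called. The part of these markers in the values of *Sytl3* was not tested.

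The genes that rose in *Pparg-cKO* were not called in control. *Snx31* had the largest increase, from 9.87 to 10.50 and from 9.95 to 11.35 (1.01 ± 0.23, adjusted p = 0.124). *Rab27b* gave 0.61 ± 0.17 (adjusted p = 0.159), *Sytl2* 0.56 ± 0.17 (adjusted p = 0.187) and *Mal* 0.34 ± 0.11 (adjusted p = 0.195), and each was higher with purmorphamine on both arrays. The rule of the methods named 2 of 60 members (3.33%, against 6.45% of 15321 genes), *Snx31* higher and *Sytl3* lower. The median of the members was 0.08 (all genes, 0.02). Uroplakins and other markers moved in control as well. Limma called 0 of the 6 uroplakins, but all 6 passed at an unadjusted p under 0.05, 5 higher and 1 lower. *Upk1a* gave 1.20 (adjusted p = 0.0541) and *Upk1b* 0.89 (adjusted p = 0.051). The superficial cell sum went from 168000 and 214000 to 299000 and 365000. *Tek* was called higher by 1.26 (adjusted p = 0.0437). The smooth muscle sum went from 206000 and 284000 to 397000 and 396000, with no smooth muscle marker called. The part of these markers was not tested.

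Whether the genotypes responded differently was tested by the difference of their purmorphamine effects. Limma called 0 of the 69 members and 0 of all genes tested (0%). At an unadjusted p under 0.05, 2 members passed, both higher, where 3.31% of all genes passed and 1.58% were higher. These were *Rab3b*, whose effect was larger in *Pparg-cKO* by 1.08 ± 0.30 (unadjusted p = 0.015 by limma), and *Rab27b*, whose effect was larger by 0.81 ± 0.23 (unadjusted p = 0.018). Both had an adjusted p of 1. For *Sytl2*, *Snx31*, *Mal* and *Sytl3* the differences were 0.43 ± 0.24, 0.37 ± 0.33, 0.36 ± 0.15 and 0.36 ± 0.20. A call in *Pparg-cKO* without one in control is therefore no call of a difference between the genotypes.

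**Figure D5:**
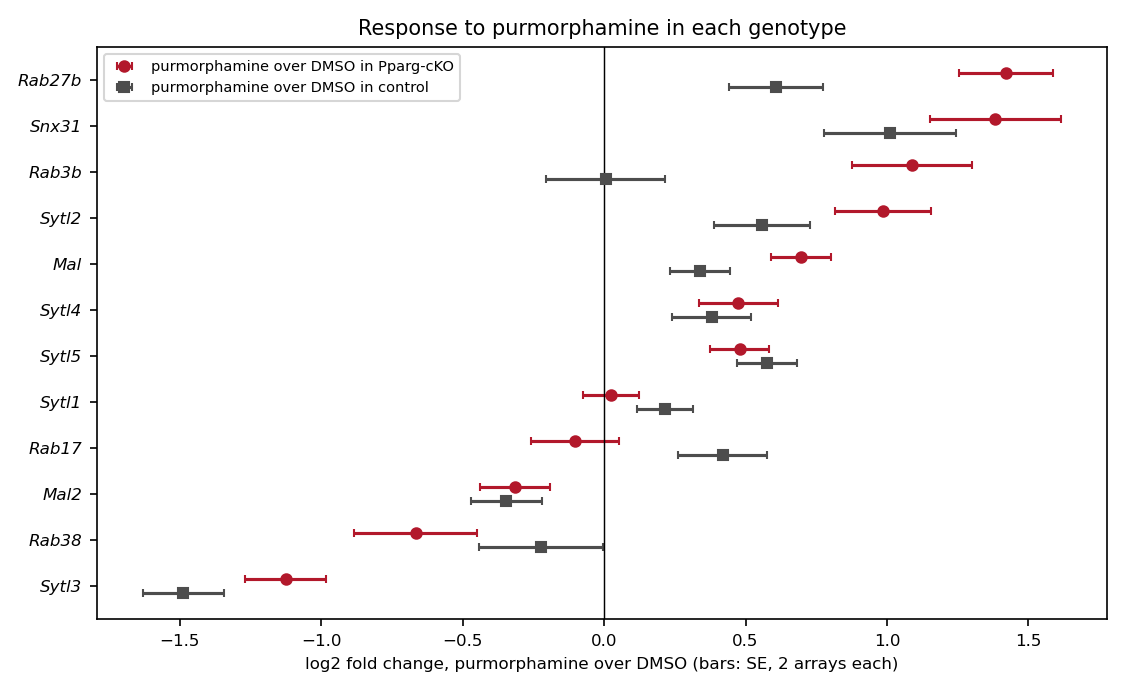
Log2 fold change of purmorphamine over DMSO (x axis; bars are the SE of the fit, 2 arrays a genotype) of 12 members (y axis), in *Pparg-cKO* as red circles and in control as grey squares. *Rab27b* and *Rab3b* have the widest gap between genotypes, and the bars of *Snx31*, *Sytl1*, *Sytl4*, *Sytl5* and *Mal2* overlap.

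Of the 69 members, 59 were neither called by limma nor changed by the rule in any comparison. The same share of all genes is not given, so this count is not read as a result about the members. The log2 fold changes of these 59 between genotypes ran from -0.47 (*Rab20*) to 0.44 (*Rab30*) with DMSO. In the presence of purmorphamine those between genotypes ran from -0.48 (*Rab20*) to 0.47 (*Rab39b*). With purmorphamine over DMSO they ran from -0.49 (*Rab44*) to 0.61 (*Rab7b*) in *Pparg-cKO* and from -0.40 (*Rab39*) to 0.59 (*Rab30*) in control. *Rab20*, an early endosome Rab, gave -0.51 for the male and -0.42 for the female pools with DMSO and was not called (-0.47 ± 0.11, adjusted p = 0.0802).

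By role, limma called 1 of the 9 recycling endosome Rabs (*Rab17*) and 0 of the 7 early endosome, 5 late endosome and lysosome, 12 endoplasmic reticulum and Golgi, and 8 post-Golgi, apical and ciliary Rabs in any comparison. Of the 8 secretory vesicle Rabs, *Rab3b* and *Rab27b* were called, each in 1 comparison given above. With DMSO, 1 of these 8 was higher and 3 were lower between genotypes at an unadjusted p under 0.05 (50%, against 15.8% of all genes). At an unadjusted p under 0.05, at most 1 of the early endosome, 1 of the late endosome, 2 of the endoplasmic reticulum and Golgi and 3 of the post-Golgi Rabs passed in a comparison. Over all genes 1.2% to 4.66% were called between groups and 15.6% to 22.2% passed without adjustment, so that lists of this size would hold few or 0 calls at the overall share. *Rab11a*, of the recycling endosome and apical exocytosis, lay between 13.96 and 14.30 in all 8 pools. *Rab25*, *Rab11b* and the Rabs of delivery from the Golgi were not called either, with ranges over the 8 pools of 13.79 to 14.06 for *Rab25*, 14.81 to 15.10 for *Rab11b*, 13.78 to 14.00 for *Rab8a*, 13.60 to 13.91 for *Rab8b*, 13.97 to 14.26 for *Rab10* and 13.16 to 13.55 for *Rab13*. *Rab5a* of early and *Rab7* of late endosomes spanned 14.25 to 14.68 and 14.20 to 14.62. *Rab3d*, of secretory granules, spanned 12.39 to 12.90 and gave -0.33 in *Pparg-cKO* with DMSO without being called. *Rab32*, listed with *Rab38* among the Rabs of lysosome-related organelles, spanned 11.47 to 12.31 and was not called. A p that misses the threshold does not show that these genes were equal between groups.

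The machinery around the Rabs was read in the same way. Limma called 0 of the 8 Rab escort, GDI and prenylation genes, 0 of 14 tested exchange factors and GTPase activators, 0 of 14 SNAREs and Munc18 proteins, 0 of 9 exocyst subunits and 0 of 8 HOPS and CORVET subunits in any comparison. Without adjustment some lists held more genes than the overall share: 6 of the 14 SNAREs and Munc18 proteins passed between genotypes with purmorphamine (42.9%, against 15.6% of all genes), 4 of them higher and 2 lower, and 3 of the 8 HOPS and CORVET subunits passed with DMSO (37.5%, against 15.8%). The escort genes held 0 in every comparison, and the exchange factors and the exocyst at most 21.4% and 22.2%. Of 8 Rab11 family effectors and myosin V motors, *Rab11fip4* was called, higher in *Pparg-cKO* with DMSO by 0.47 (adjusted p = 0.0457), and *Myo5b*, the motor of Rab11 vesicles, gave 0.16. *Rph3al*, another effector of Rab27 and Rab3, was called higher in both media, at 9.36 and 9.14 in control against 10.53 and 10.21 in *Pparg-cKO* with DMSO (1.12 ± 0.15, adjusted p = 0.0125), and by 0.86 with purmorphamine (adjusted p = 0.0373). Among 6 relatives of *Mal*, *Cmtm8* was called higher with DMSO (1.15 ± 0.22, adjusted p = 0.0421).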

How the data were processed

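Total RNA from 8 pools of cultured ureters was hybridized by the authors to 4 arrays, labelled with AlexaFluor555 or AlexaFluor647, with the dyes swapped between the male and the female array of a genotype. The deposited scanner files hold spot intensities of both dyes, their background and processed intensities, and a log10 ratio of red over green, made with Agilent Feature Extraction (10.7.3.1 per the labels, 12.2.0.7 per the file headers). The deposited value table holds a score per probe and array, a signed fold change rounded to 1 decimal with no value between -1 and 1. It runs as purmorphamine over DMSO when set against the log10 ratios (Pearson r of 0.796 to 0.867 across probes), its column medians were 1 on all 4 arrays, and its centring is not stated.

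Intensities were corrected with normexp (offset 50, all spots), control spots were left out and had weight 0 in the loess, outlier spots were dropped, and the 4 spots of a probe were averaged (limma 3.58.1, R 4.3.3). For the genotypes, Aquantile normalization preceded a fit of separate channels (intraspot correlation 0.071, from 4000 probes), and for purmorphamine limma was fitted to within-array log2 ratios. A probe was tested where more than 2 of its 4 spots exceeded background in each pool of 1 group or more (27064 probes, 20229 genes). The rule of the methods used processed signals scaled to a 75th percentile of 1500 with a floor of 15. A gene counted where any of its probes passed. All 4 arrays lay on 1 slide with 1 scan, so slide and scan could not be used as a block. Fits were tested on simulated data. The alternatives changed the background correction, the filter, the probe rule, the normalization between arrays, the source of the values, the replicate block and the arrays used. The members and gene lists were chosen with earlier results of these data known. Named members are all that were called or changed, and those with a known part in urothelial vesicles, apical traffic or hedgehog signalling. Promoter sequences are from RefSeq (GRCm38.p6). 1 marker of the kidney list is not reported here and was left out of its sum. The files' probe coordinates are of another build and are not used here.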

Additional observations from a re-analysis of the deposited data

How the results depend on the processing

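The counts of members called depended on the settings. For *Pparg-cKO* over control with DMSO (4 called), no normalization between arrays gave 7, adding *Mal*, *Rab20* and *Rab27b*, all lower. This setting moved the median of all genes by -0.15 (from 0.00 to -0.15), and the split went from 1 higher and 3 lower to 1 higher and 6 lower. Leaving out 1 array gave 0 (without the female control array) to 1 with DMSO and 0 with purmorphamine in all 4 cases, against 4 each. For *Pparg-cKO* over control with purmorphamine, processed signals gave 1 (*Sytl1*) and the replicate block gave 1 (*Sytl2*). For purmorphamine over DMSO in *Pparg-cKO* (5 called), processed signals, no filter on dim probes and the value table gave 0 each, and leaving out 1 array gave 0 to 5. At an unadjusted p under 0.05 the main setting had 17 members there and these settings 18, 20 and 15. In control (1 called), the same settings gave 0 each, with 14, 17 and 12 members at an unadjusted p under 0.05, leaving out 1 array gave 0 to 1, and the replicate block gave 2, adding *Snx31*. The causes were not tested. With 3 arrays the intraspot correlation could not be estimated and that of all 4 was used, and the lone pool of a group was taken to vary like the others.

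The replicate block, the number that is also sex and dye, is no known pairing: the deviations of same-numbered pools correlated between -0.171 and 0.482 across probes over the 6 pairs of groups. With it limma called 4 members with DMSO (*Rab27b* gained, *Sytl1* lost), 1 with purmorphamine, 5 and 2 for the purmorphamine effects and 0 for their difference.

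For the rule of the methods, a fold change of at least 2 left 4, 2, 3 and 1 of the 7, 7, 6 and 2 members, in the order of the comparisons. No intensity threshold gave 4 for purmorphamine in control. Using 1 pair gave 11 to 14, 7 to 10, 7 to 15 and 6 members. No log2 fold change of a called member changed sign under any alternative run, and in 60 cases the call was kept and in 66 lost. The slide was not run as a block. The arrays' small number limits the precision, and 1 member (*Rab9b*) was not well above background in *Pparg-cKO* with DMSO.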
